A study of Drosophila melanogaster with 24 samples.

Results

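The genes described are 8 that encode signals which fat body is known to secrete or that tie it to feeding: fit, to, CCHa2, daw, egr, Gbp1, Gbp2 and sun. All 8 were picked by name for that role, by a rule that uses no measured value, and each was found among the 13234 genes of the authors' deposited table. RNA had been sequenced from fat body dissected from virgin w1118 Drosophila melanogaster females in 24 libraries. The 4 groups of 6 libraries crossed temperature with hormone: 11 °C with ethanol, 11 °C with S-methoprene, 25 °C with ethanol and 25 °C with S-methoprene, a juvenile hormone analogue. Every fly had been reared at 25 °C and held for 25 days as an adult in its condition, with 10 µL of ethanol or of hormone in ethanol volatilised every 2 days. Each library pooled 25 flies, and only flies with the ovaries looked for were used, which were regressed at 11 °C with ethanol and large otherwise, so ovary state differs between groups by selection.

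The deposited table holds 1 comparison and names neither its factor nor its direction. Genes are therefore said to be higher on its positive or on its negative side, and no side is tied to a temperature or to the hormone. No value per library was analysed, so library depth, the spread of replicates and the number of libraries behind each value are unknown. Each gene has a mean normalised read count over libraries, a log2 fold change with its standard error (SE) and an adjusted p-value, and a gene is called where that adjusted p is below 0.05.

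Fat body takes the place of liver and adipose tissue in the fly and tells the brain what has been eaten by releasing proteins into the blood. Most of the genes treated here are known for such relays. Fit signals satiety after protein feeding, and CCHa2, the growth-blocking peptides Gbp1 and Gbp2, and Stunted (sun) raise the output of insulin-like peptides by brain cells, while Eiger (egr), the fly tumour necrosis factor, lowers it. Dawdle (daw) is an activin-like ligand that answers to sugar, and takeout (to) is a clock-controlled, starvation-responsive gene for a carrier-like protein that affects feeding. Much of this was learned in larvae.

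Of the 8 genes, fit and sun were higher on the negative side and Gbp1 was higher on the positive side, while Gbp2, daw, egr, CCHa2 and to were not called. That is 3 of 8 genes, or 37.5%, against 49.0% of the 11399 genes with an adjusted p per the authors' deposited table. By direction, 1 of 8 was called on the positive side, where the share of all genes was 27.0%, and 2 of 8 on the negative side, where it was 22.0%. Only fit was both called and changed at least 2-fold, against 18.3% of all genes and 9.66% of genes with a mean of at least 100. The median absolute log2 fold change was 0.40 over the 8 genes, 0.49 over all genes with an adjusted p and 0.36 over those with a mean of at least 100. The share called was thus no higher than that of the table as a whole.

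**Figure D1:**
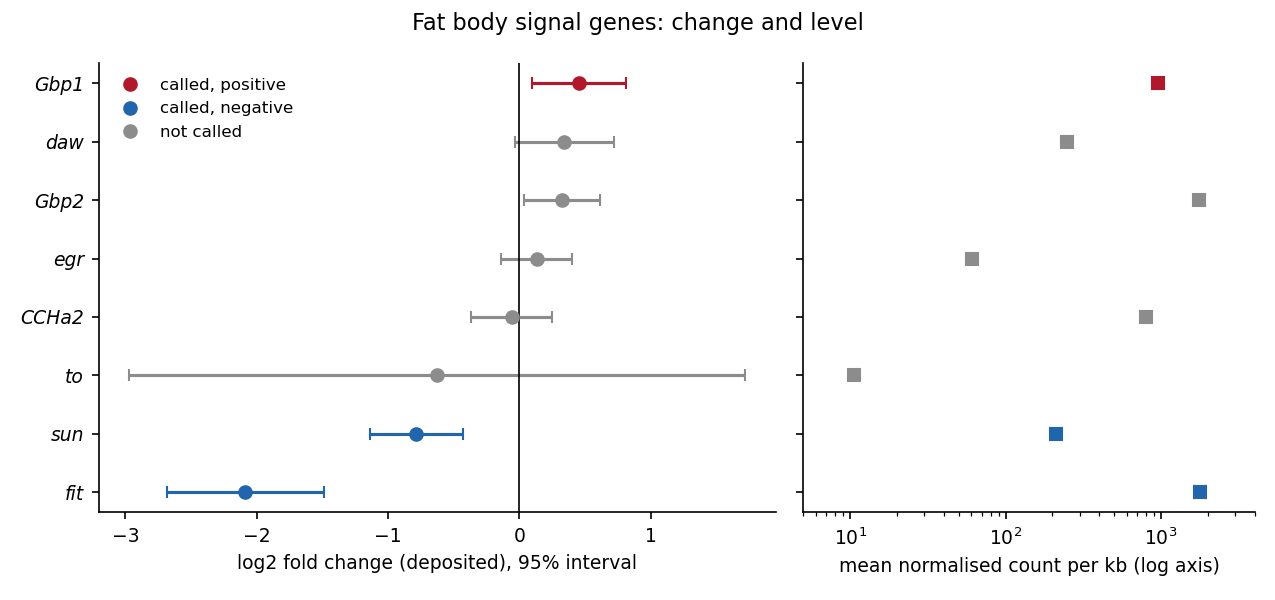
Deposited log2 fold change with a 95% interval (left) and mean normalised count per kb of the longest transcript on a log axis (right) for the 8 signal genes, with blue and red for genes called on the negative and positive side and grey for genes not called. fit at -2.09 and sun at -0.78 lie clear of 0 on the left, Gbp1 at 0.46 on the right, and the interval of to runs from -2.97 to 1.72.

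The satiety gene fit had the largest change of the 8. Its mean per the authors' deposited table was 951 and its log2 fold change was -2.09 (SE 0.31, adjusted p = 1.23e-10). Transcripts of fit were thus 4.25-fold more abundant on the negative side, with a 95% interval of 2.81-fold to 6.44-fold. Among 5238 genes with a mean of at least 100, fit had the 68th most negative fold change, and by the size of its statistic it ranked 782 of all genes with an adjusted p. The gene (FBgn0038914) lies on 3R from 21883924 to 21884454 on the minus strand, in the dm6 coordinates of the Ensembl annotation. It has a single exon of 531 bases, of which 363 are coding. The annotation puts an exon of asRNA:CR45046, on the same strand, over 32 of those bases. That transcript was itself called per the authors' deposited table at -2.61 (SE 0.85), with a mean of 1.22, so it holds few reads beside fit. The exon of fit also shares 67 bases with CG31465, which was not analysed here. Of the nearest genes on either side, CG34148, 5238 bases away, was called at -2.75 (SE 0.96) with a mean of 1.06, and dnd, 1222 bases away, stood at -0.16 (SE 0.20) with a mean of 44.7 and was not called, per the authors' deposited table. P5CDh2 at -2.21 (SE 1.44) and CG17819 at -0.29 (SE 3.01), with means of 0.438 and 0.115, had no adjusted p in the authors' deposited table.

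The standard error of fit was large for its level. Among the 500 genes nearest to it in mean, the median SE was 0.13, so the SE of fit was 2.37 times that median and above 94.6% of those genes. With a change of up to 0.5 (log2) taken as no change, fit was still called (adjusted p = 5.74e-06, normal test from the deposited values with Benjamini-Hochberg adjustment). Because fat body was dissected as a tissue, fewer cells that make a transcript and less of it per cell cannot be told apart, for fit and for every other gene here.

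fit takes its name from female-specific expression independent of transformer, so the sex-determination genes and their yolk protein targets were read beside it. Of those 10 genes, 2 were called positive and 3 negative (median -0.21), or 50% against 49.0% of all genes. The split was 2 and 6 when fold changes were centred on the median gene, at 0.07, and 1 and 4 when each was taken against the median of genes of like length and mean. The 3 called negative were the yolk protein genes, which the Doublesex protein controls in female fat body. The authors' deposited table put Yp1 at -3.05 (SE 0.36), Yp2 at -2.94 (SE 0.36) and Yp3, the least changed of them, at -2.10 (SE 0.29), close to fit. The switch gene Sxl stood at 0.30 (SE 0.07) per the authors' deposited table, and dsx, which missed the threshold (adjusted p = 0.0722) and which was picked out after its value was seen, at -0.32 (SE 0.15).

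sun was the other gene higher on the negative side. Its mean was 94.6 and its log2 fold change -0.78 (SE 0.18, adjusted p = 6.78e-05) per the authors' deposited table. Its transcripts were 1.72-fold more abundant on the negative side, with a 95% interval of 1.35-fold to 2.20-fold. sun (FBgn0014391) lies on X from 15847859 to 15849258 on the minus strand and makes short transcripts of 400 and 450 bases. Its protein is also known as the epsilon subunit of mitochondrial ATP synthase. Of 13 other ATP synthase genes with an adjusted p, 12 were called negative and 0 positive (median -0.38). That is 92.3% called negative, against 22.0% of all genes called negative and 49.0% called in either direction. ATPsyndelta stood at -0.71 (SE 0.15), ATPsynCF6 at -0.63 (SE 0.13), ATPsynD at -0.54 (SE 0.12) and ATPsynE at -0.51 (SE 0.11) per the authors' deposited table. The interval of sun, -1.14 to -0.43, takes in the values of these 4 subunits, which were named for having the smallest adjusted p. The list median of -0.38 lies outside that interval. No difference between sun and the other subunits was tested.

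The shortest transcripts had a negative median fold change, and sun and fit are short. Over the 2146 genes of the shortest of 5 length bins, up to 980 bases, the median log2 fold change was -0.11, and in the longest bin it was 0.35. In the shortest bin 544 genes were called negative and 334 positive, and the median differed with the mean. Among genes of like length and mean it was -0.43 for fit and -0.29 for sun, but 0.37 for Ilp8, with a mean of 10.9. Relative to the median of genes of like length and mean, fit stood at -1.65 (adjusted p = 5.69e-07) and sun at -0.49 (adjusted p = 0.0179), both still called. Of the 12 ATP synthase calls, 1, that of ATPsyndelta, was left on that scale, at -0.98, beyond the value of sun. ATPsyndelta was placed by a longest annotated transcript of 3817 bases, among genes with a median of 0.27. For ATPsynCF6, ATPsynD and ATPsynE that median was -0.43, so these values rest on the length assigned to each gene. What length has to do with these values was not tested.

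Of the 3 growth-blocking peptide genes, Gbp1 was called, on the positive side. Gbp1 had a mean of 436 and its log2 fold change was 0.46 (SE 0.18, adjusted p = 0.0274) per the authors' deposited table. Its transcripts were 1.37-fold more abundant on the positive side, with a 95% interval of 1.07-fold to 1.76-fold. Gbp2, with a mean of 4012, stood at 0.32 (SE 0.15, adjusted p = 0.0542) per the authors' deposited table and missed the threshold narrowly. At its SE an estimated log2 fold change of 0.33 would have been called. The third family gene, Gbp3, stood at 0.16 (SE 0.17) with a mean of 1191 per the authors' deposited table and was not called. The 3 intervals overlapped, and no difference between the genes was tested.

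Both results near the threshold depended on the processing. With fold changes centred on the median gene, which itself stood at 0.07, Gbp1 stood at 0.38 and was not called (adjusted p = 0.0673). Where genes with a mean under 10 were left out, Gbp2 passed (adjusted p = 0.0481). Against genes of like length and mean, Gbp1 stood at 0.89 (adjusted p = 7.15e-06), since its transcript of 453 bases falls among short genes of high mean, with a median of -0.43. Gbp2 stood at 0.28 (adjusted p = 0.108), placed by its transcript of 2279 bases among genes with a median of 0.04. Its other transcript, of 1515 bases, falls in the length bin of CCHa2, where genes of high mean had a median of -0.22. The value of Gbp2 on this scale thus depends on the transcript taken. Gbp1 (FBgn0034199) lies on 2R from 17136451 to 17136903, and Gbp2 (FBgn0034200) follows on the same strand from 17137240 to 17139595, its start 337 bases past the end of Gbp1. CG43103, on the opposite strand, shares 146 exon bases with Gbp2. It stood at 0.43 (SE 0.21) per the authors' deposited table with a mean of 572, and the sources used here do not say how reads from the shared bases were assigned.

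The receptor of the growth-blocking peptides, mthl10, was itself called positive. Its log2 fold change per the authors' deposited table was 1.28 (SE 0.16, adjusted p = 1.45e-14), or 2.43-fold higher on the positive side, at a mean of 144. The receptor of Stunted, mth, went the other way, at -0.47 (SE 0.13, adjusted p = 0.000877) with a mean of 51.7 per the authors' deposited table. The 2 receptor genes are neighbours on 3L, 462 bases apart, and mthl9, 491 bases before mthl10, stood at 1.20 (SE 0.25) per the authors' deposited table. All 3 lie within the span of Ptpmeg on the opposite strand, at 1.10 (SE 0.11) per the authors' deposited table, and share no exon base with it. Over the methuselah family, 5 of 12 genes with an adjusted p were called positive and 3 negative (median 0.33), or 66.7% called against 49.0% of all genes. The split was 4 and 4 when centred on the median gene or on genes of like length and mean. Besides mthl10 and mthl9 the called genes included mthl15 at 1.54 (SE 0.23) and mthl14 at -0.75 (SE 0.18) per the authors' deposited table.

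CCHa2, a peptide gene expressed in fat body and gut, was abundant and showed no call. Its mean was 1053 and its log2 fold change -0.06 (SE 0.16, adjusted p = 0.786) per the authors' deposited table. The 95% interval of the ratio of the positive to the negative side ran from 0.774 to 1.19, so the interval reaches no further than a 1.29-fold excess on the negative side. Against genes of like length and mean its value turned to 0.16 (adjusted p = 0.434), so no direction was read for it. CCHa2 (FBgn0038147) lies on 3R from 13389059 to 13395197 on the minus strand, with 3 annotated transcripts that carry the same coding length of 408 bases.

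Its receptor gene CCHa2-R, which acts in brain cells that make insulin-like peptides, stood at 2.94 (SE 0.68, adjusted p = 6.95e-05) per the authors' deposited table. The mean of CCHa2-R was only 2.62, so that fold change rests on few reads. CCHa1, the related peptide gene, was at -0.47 (SE 0.52) with a mean of 4.96 per the authors' deposited table. As CCHa2 also comes from enteroendocrine cells of the gut, their markers were read beside it: 1 of 10 was called, Tk at 1.66 (SE 0.27) per the authors' deposited table, and 0 on the negative side (median 0.24). That is 10% called, against 49.0% of all genes. The means of these 10 markers ran from 0.711 to 117 and summed to 256, and the part of these cells in the value of CCHa2 was not tested.

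The activin-like ligand daw was not called, while its receptors were. daw had a mean of 759 and its log2 fold change was 0.34 (SE 0.19, adjusted p = 0.127) per the authors' deposited table, a ratio of 1.27 with a 95% interval of 0.977 to 1.65. At its SE an estimated log2 fold change of 0.43 would have been called. daw (FBgn0031461) lies on 2L from 2805261 to 2812376. The type I receptor babo was higher on the positive side at 0.80 (SE 0.14, adjusted p = 3.79e-08), and the type II receptor put at 0.25 (SE 0.07, adjusted p = 0.000968), per the authors' deposited table. The signal transducer Smox, which Babo phosphorylates, was at -0.34 (SE 0.11) per the authors' deposited table, on the negative side.

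Of 19 activin and BMP pathway genes with an adjusted p, 7 were called positive and 2 negative (median 0.16). That is 47.4% called, against 49.0% of all genes, and against genes of like length and mean the split was 4 positive and 3 negative. Besides babo and put, these included the BMP ligand dpp at 0.89 (SE 0.11), its receptor tkv at 0.64 (SE 0.16) and the transducer Mad at -0.40 (SE 0.07) per the authors' deposited table. The receptor genes sax, at -0.05 (SE 0.13), and wit, at 0.03 (SE 0.21), were not called per the authors' deposited table and are given after their values were seen. The other activin-like ligands were not called, with myo at 0.06 (SE 0.10) and Actbeta at -0.10 (SE 0.25) per the authors' deposited table, both given after their values were seen. Against genes of like length and mean, put stood at -0.024 and its call was lost.

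Eiger was expressed at a moderate level and was not called. The authors' deposited table gave egr a mean of 132 and put its log2 fold change at 0.13 (SE 0.14, adjusted p = 0.439). The ratio of the positive to the negative side was 1.10, with a 95% interval of 0.909 to 1.32. egr (FBgn0033483) lies on 2R from 10078366 to 10084210. Of its receptor genes, wgn was higher on the positive side at 0.78 (SE 0.14, adjusted p = 2.53e-07), and grnd stood at -0.38 (SE 0.21, adjusted p = 0.121) per the authors' deposited table. Of 14 genes of the tumour necrosis factor and JNK pathway, 7 were called positive and 1 negative (median 0.27), or 57.1% against 49.0% of all genes. Centred on the median gene the split was 5 positive and 3 negative.

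The called genes of that pathway with the smallest adjusted p included wgn and kinase and adaptor genes. The JNK gene bsk stood at 0.63 (SE 0.09), the upstream kinase msn at 0.64 (SE 0.10) and the adaptor Tab2 at 0.60 (SE 0.08) per the authors' deposited table. The kinase gene slpr at 0.23 (SE 0.15) and the adaptor genes Traf4 at 0.09 (SE 0.13) and Traf6 at -0.12 (SE 0.09), given with their values known, were not called per the authors' deposited table. The Fos gene kay, named after its value was seen, gave the 1 negative call, at -0.55 (SE 0.14) per the authors' deposited table. The phosphatase gene puc, a usual readout of JNK activity and also singled out with its value known, stood at -0.13 (SE 0.14, adjusted p = 0.449) per the authors' deposited table.

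**Figure D2:**
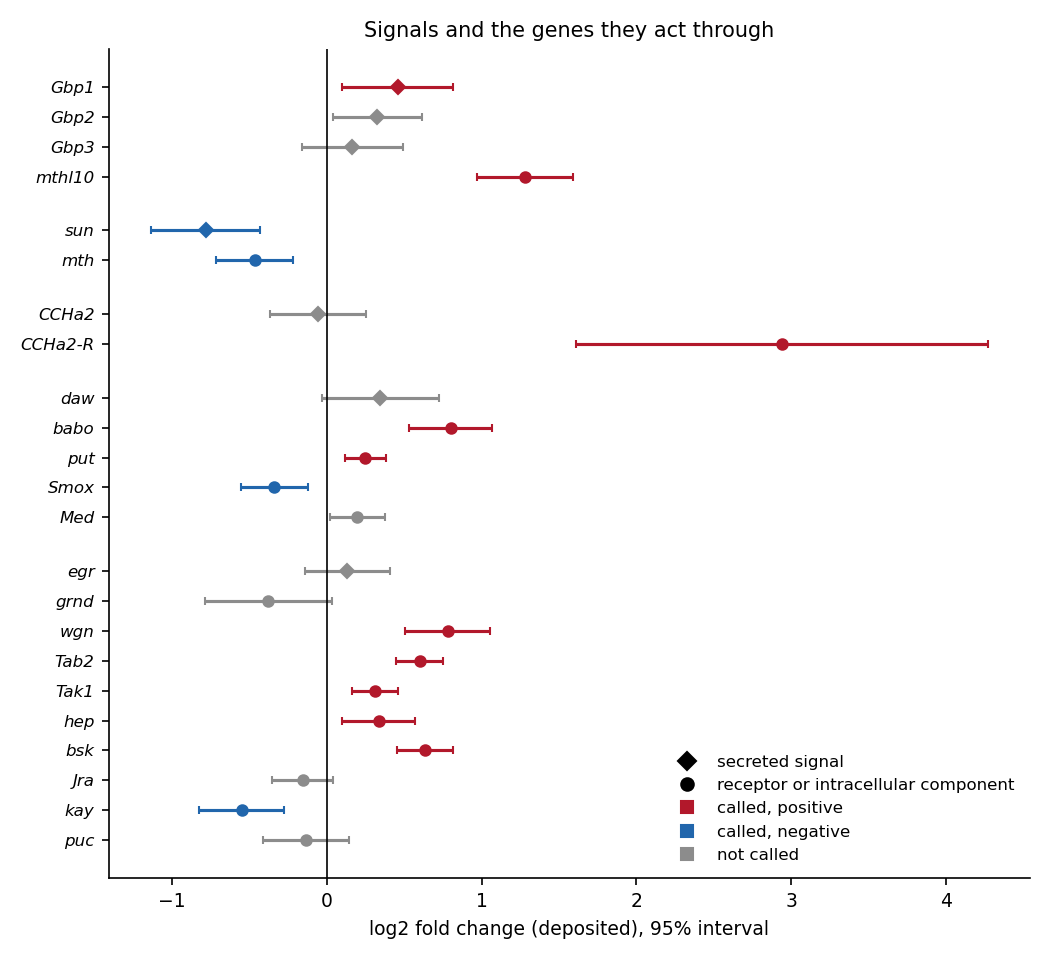
Deposited log2 fold changes with 95% intervals for the secreted signals (diamonds) and for receptors and intracellular components (circles), grouped by signal, coloured by call and direction. mthl10 at 1.28, CCHa2-R at 2.94, babo at 0.80 and wgn at 0.78 lie further to the right than the signals they receive, and mth at -0.47 lies on the left with sun. The other receptors lie further to the left than their signals, put at 0.25 against daw at 0.34 and grnd at -0.38 against egr at 0.13.

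Taking the 7 receptor genes of these signals together, 5 were called positive and 1 negative (median 0.78). That is 85.7%, against 49.0% of all genes. Several of these receptors are known to act in neurons, and the neuron and muscle markers that were called were also on the positive side. Of 8 neuron markers 5 were called positive and 0 negative (median 1.24, means from 4.41 to 315, summed mean 643), with elav at 1.69 (SE 0.16) per the authors' deposited table. Of 8 muscle markers 5 were positive and 0 negative (median 0.81, means from 196 to 2063, summed mean 4216), with Mlc2 at 1.60 (SE 0.18) per the authors' deposited table. Of 6 hemocyte markers 4 were positive and 0 negative (median 0.79, means from 11.9 to 813, summed mean 2065), with eater at 1.01 (SE 0.17) per the authors' deposited table. Markers not called, given with their values known, included nSyb at -0.33 (SE 0.29), the muscle gene up at -0.12 (SE 0.17) and the hemocyte gene Hml at -0.07 (SE 0.27) per the authors' deposited table. elav shares 673 exon bases with arg on the opposite strand, at -0.74 (SE 0.15) per the authors' deposited table. For neuron, muscle and hemocyte markers that is 62.5%, 62.5% and 66.7% called positive, against 27.0% of all genes. Against genes of like length and mean, 4 neuron, 5 muscle and 4 hemocyte markers were called positive. On that scale the receptors gave 4 positive and 1 negative. The part of these cell types in the receptor values was not tested, nor was any difference between a receptor and its signal.

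takeout was measured with little precision. Its mean was 13.2 and its log2 fold change -0.62 (SE 1.20, adjusted p = 0.688) per the authors' deposited table. The 95% interval ran from -2.97 to 1.72 on the log2 scale, so either side could hold several times more. Its SE was 3.96 times the median of the 500 genes nearest in mean and above 98.8% of them, and only an estimate of at least 6.46-fold would have been called. to (FBgn0039298) lies on 3R from 25240180 to 25241668.

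takeout is a target of the circadian clock, and clock genes were called in both directions. Of 8, 4 were called positive and 2 negative (median 0.36), or 75% called against 49.0% of all genes. The authors' deposited table gave per at 2.06 (SE 0.13), tim at 1.62 (SE 0.20) and Pdp1 at 0.56 (SE 0.11), against the photoreceptor gene cry at -1.24 (SE 0.12). The sources used here do not give the time of day at dissection.

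**Figure D3:**
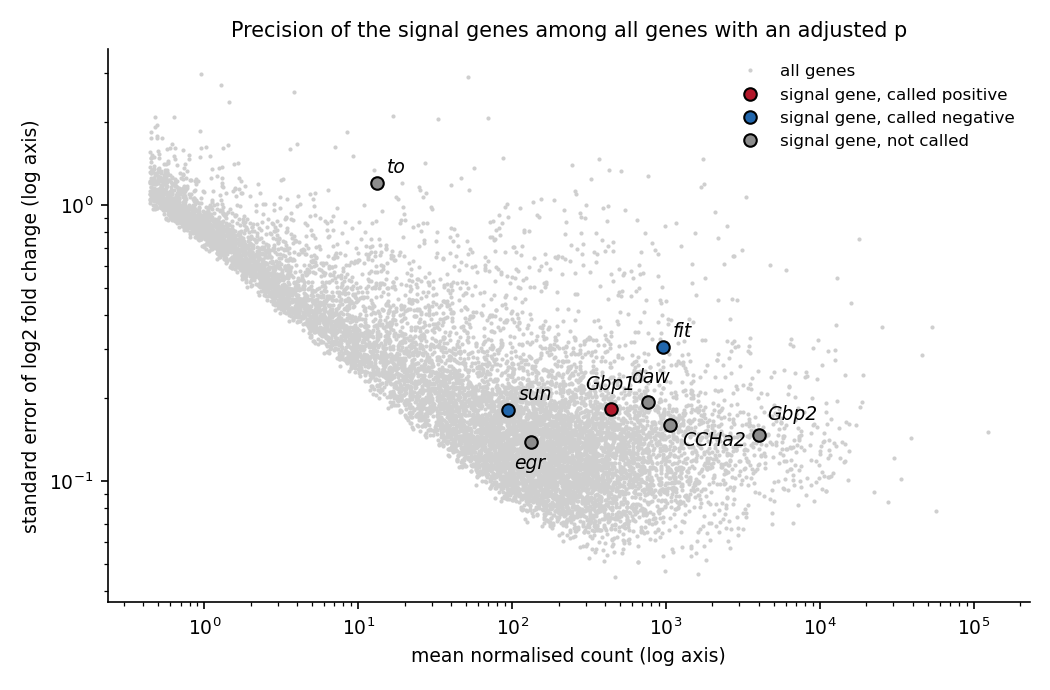
Standard error of the deposited log2 fold change against mean normalised count, both on log axes, for all genes with an adjusted p (light points) and the 8 signal genes (large points). to at 1.20 and fit at 0.31 lie above most genes of their mean, and egr at 0.14 lies within the cloud.

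Levels could be set side by side only per kb, with no error, since the table gives a mean and no spread. Per kb of the longest annotated transcript the mean normalised count was 1791 for fit, 1761 for Gbp2, 962 for Gbp1, 796 for CCHa2, 249 for daw, 210.1 for sun, 60.7 for egr and 10.5 for to. fit, at this scale, was above 97.8% of genes with a length and to above 41.3%. The order of fit and Gbp2 depends on the transcript taken: per kb of the shorter Gbp2 transcript of 1515 bases its level was 2648.

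**Figure D4:**
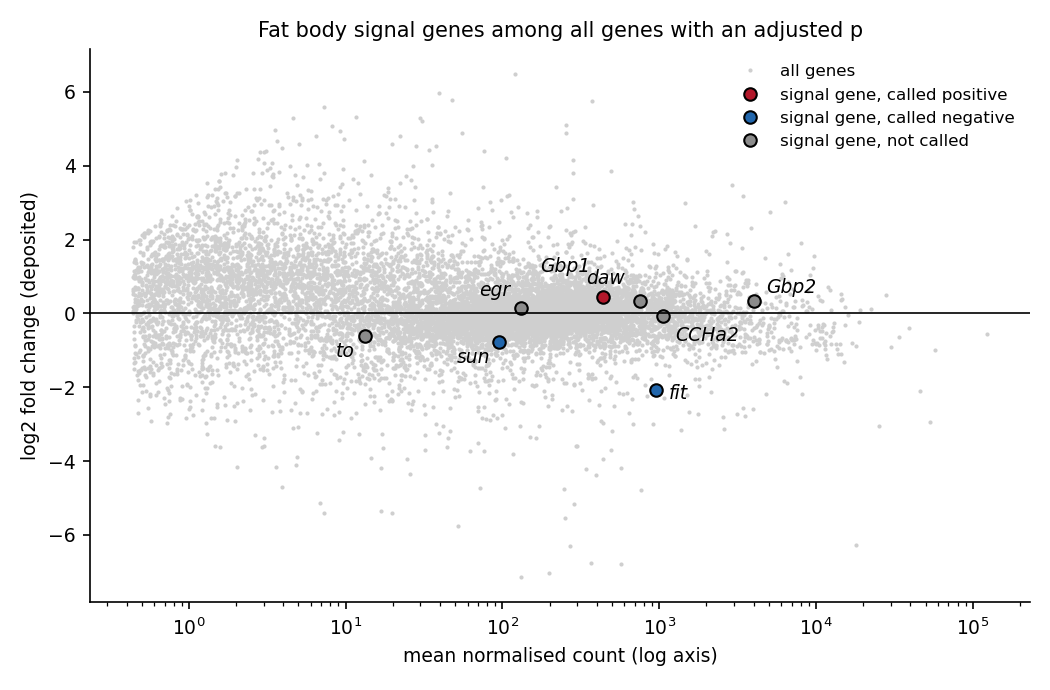
Deposited log2 fold change against mean normalised count (log axis) for all genes with an adjusted p (light points) and the 8 signal genes (large points, coloured by call). fit, at a mean of 951 and -2.09, lies below most genes of its mean, while the other signal genes lie between -0.78 and 0.46.

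For other secreted products of fat body, the number of calls depended on the threshold and their direction on the scale. Of 13 such genes, 0 were called positive and 4 negative (median -0.0037), or 30.8% against 49.0% of all genes, and 0 of the called genes changed at least 2-fold. At an adjusted p under 0.1 the count was 7 of 13, 2 positive and 5 negative, where 55.6% of all genes were called. Against genes of like length and mean the split was 3 positive and 1 negative, so no direction was read for the list. The 4 called genes were Nplp2 at -0.78 (SE 0.15), and the imaginal disc growth factor genes Idgf2 at -0.49 (SE 0.12), Idgf4 at -0.46 (SE 0.20) and Idgf6 at -0.34 (SE 0.13) per the authors' deposited table. Among the rest, named after their values were seen, ImpL2, whose protein binds insulin-like peptides, stood at 0.34 (SE 0.27), and upd2, a leptin-like cytokine gene, at -0.42 (SE 0.62) with a mean of 1.86 per the authors' deposited table. Of the insulin-like peptide genes, 3 had an adjusted p and 0 were called by the authors' DESeq2 test, with 1 at an unadjusted p under 0.05. The share called among all genes was 49.0%. Means were only 0.545 for Ilp5, given with its value known, and 10.9 for Ilp8 per the authors' deposited table, so little is known of the family. The one that fat body makes, Ilp6, stood at 0.30 (SE 0.14, adjusted p = 0.0647) with a mean of 649, and Ilp8 at -1.82 (SE 0.999, adjusted p = 0.119), per the authors' deposited table. Their 95% intervals were 0.02 to 0.58 and -3.78 to 0.14.

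Feeding neuropeptides and their receptors, mostly made by neurons and gut, were called mainly on the positive side. Of 19 with an adjusted p, 8 were called positive and 0 negative (median 0.75), and against genes of like length and mean 6 positive and 1 negative. That is 42.1% called positive, against 27.0% of all genes called positive and 49.0% called in either direction. With a mean of at least 10 it was 5 of 11, where 56.3% of all genes were called in either direction. Called genes of low mean, given with their values known, were Dsk at 0.786, AstA-R1 at 0.973 and CCHa2-R at 2.62 per the authors' deposited table. Dh44, a diuretic hormone gene, stood at 4.01 (SE 0.73) with a mean of 26.8, amn at 1.68 (SE 0.24), NPFR, the receptor gene of neuropeptide F, at 1.73 (SE 0.30) and Tk at 1.66 (SE 0.27) per the authors' deposited table. The cold-inducible gene Fst, at 3.17 (SE 0.31) with a mean of 3446 per the authors' deposited table, lies within the span of Dh44 on the opposite strand and shares no exon base with it. amn shares 140 exon bases with Hers on the opposite strand, at 0.80 (SE 0.17) per the authors' deposited table. The strand setting of the counting is not stated, so reads from bases shared by amn and Hers cannot be told apart. AkhR, the fat body receptor of adipokinetic hormone, chosen with its value known, was at -0.03 (SE 0.15) with a mean of 1051 per the authors' deposited table.

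The tissue label was read against its markers. Of 12 fat body markers, 3 were called positive and 5 negative (median -0.23, means from 3.38 to 53598), or 66.7% called against 49.0% of all genes. FASN1 and apolpp, picked after their values were seen, had means of 19175 and 18112 per the authors' deposited table, while those of Fbp1, Fbp2 and Lsp2, known mainly from larval fat body, were 3.38, 4.20 and 8.37. Markers of neighbouring tissues were present on both sides. On the negative side were 4 of 5 follicle cell and eggshell markers with an adjusted p (median -4.75), 3 of 4 oenocyte markers (median -1.58) and 4 of 6 germline markers (median -1.64), with 0 positive in each. That is 80%, 75% and 66.7%, against 22.0% of all genes called negative. Among them were Vm34Ca at -6.76 (SE 1.46), Fad2 at -6.26 (SE 0.75) and AGO3 at -2.06 (SE 0.43) per the authors' deposited table. The other oenocyte markers changed less, with eloF at -2.60 (SE 0.25) and Cyp4g1, with a mean of 123338, at -0.55 (SE 0.15) per the authors' deposited table. Cpr, given with its value known, stood at -0.36 (SE 0.19) per the authors' deposited table and was not called. The 3 follicle cell markers with no adjusted p, given with their values known, were Cp36 at 2.36 (SE 1.75), yellow-g at 1.15 (SE 0.83) and Cp16 at 0.05 (SE 2.92) per the authors' deposited table. Of 6 gut markers 1 was positive and 1 negative (median -0.03), or 33.3% called against 49.0% of all genes. The summed means were 2277 for all 8 follicle cell markers, 158299 for oenocytes, 659 for germline and 38716 for gut, and the part of these cells in the values of fit and sun was not tested.

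**Figure D5:**
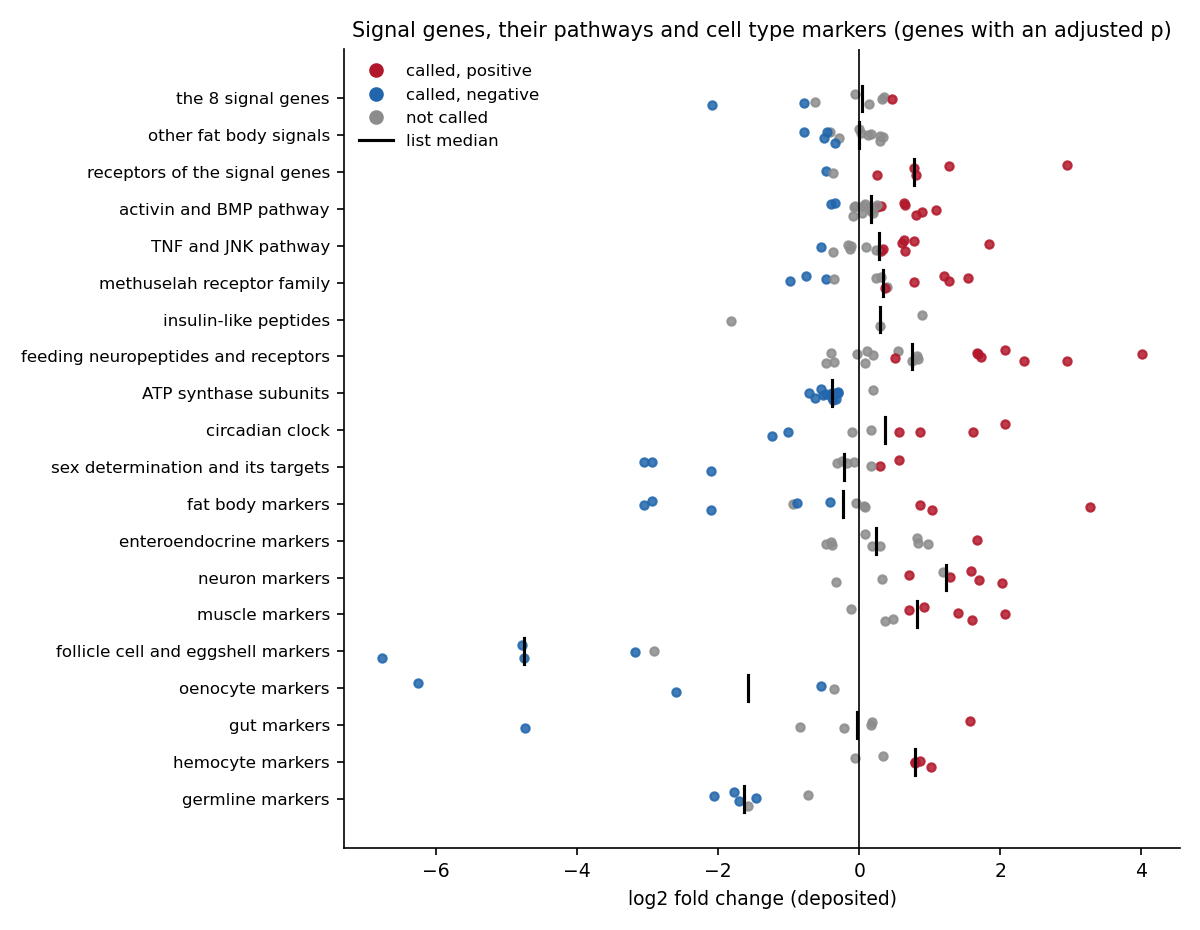
Deposited log2 fold changes of genes with an adjusted p, 1 row for each list, with points coloured by call and a black bar at the list median. The receptors have a median of 0.78, the ATP synthase subunits lie together near -0.38, and the follicle cell markers reach -6.76.

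With other settings the number of the 8 signal genes that were called stayed between 1 and 4. It was 2 at an adjusted p under 0.01 and 4 under 0.1, where 38.2% and 55.6% of all genes were called. It was 3 when p-values were adjusted over all genes with a p-value (41.2% of genes called), 4 of 8 with a mean of at least 10 (56.3%) and 3 of 6 with a mean of at least 100 (58.6%). Centred on the median gene it was 2 (49.5%), and against genes of like length and mean it was 3 (42.5%). Tested against a change of at most 0.5 (log2) it was 1, fit, where 12.7% of all genes were called.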

How the data were processed

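The submitters' processing notes name DESeq2, Bowtie2, FastQC, Trim Galore, cutadapt, Picard and SAMtools, with build dm6. Not given in the sources used here are their versions and order, the tool that counted reads, its strand setting and its annotation. Per the labels' protocols, messenger RNA was captured on poly-T beads before library preparation. The authors' deposited table used here holds no value per library, so depth is unknown. Per the file headers it holds a mean normalised count (a signal value), a log2 fold change with its standard error on the same log2 scale, a test statistic (a score), and raw and adjusted p-values. Checked on the values, the deposited statistic is the fold change over its SE, its p-value is two-sided and normal, and adjustment was by Benjamini-Hochberg over 11399 genes; 40 genes have no p-value and 1795 more no adjusted one. How much of the spread behind these p-values is technical is not known.

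From these values were computed 95% normal intervals, list counts, ranks and 8 alternative settings, in Python 3.11.15 with pandas 2.3.3 and scipy 1.17.1; the re-adjustments were tested on simulated data. Gene positions and lengths came from the Ensembl annotation of BDGP6 (dm6 coordinates), which matched 94.6% of genes by symbol; length and mean bins were 5 by 4. Genes named are the 8 signal genes, all their receptors, and from each of 19 lists up to 4 called genes with the smallest adjusted p, or 2 of highest mean where none was called; others are marked, or stand in a sentence for their role or position. Members and lists were chosen with earlier results of these data known.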

Additional observations from a re-analysis of the deposited data

How the results depend on the processing

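No paired analysis was possible because the deposited table holds no value per library; leaving out replicates was not possible for the same reason, and the takeout family was not analysed here. Of 167 alternative counts, 136 stayed within 1.5 times the reported count, and of 72 named genes 36 kept call and direction under every alternative. Tested against a change of at most 0.5 (log2), counts were 1 for the signal genes, 0 for other fat body signals, 2 for receptors, 1 for activin and BMP genes, 0 for TNF and JNK genes, 3 for methuselah genes, 5 for feeding neuropeptides, 0 for ATP synthase, 3 for clock, 3 for sex determination, 5 for fat body, 3 for neuron, 2 for muscle, 1 for hemocyte and 1 for germline genes. At an adjusted p under 0.01 they were 2 for other fat body signals and 2 for germline, and under 0.1 they were 7 for other fat body signals, 1 for insulin-like peptides, 9 for sex determination and 2 for enteroendocrine genes. With a mean of at least 100 fewer genes were tested, and 58.6% of all genes were called. Counts were then 3 of 3 for receptors, 3 of 3 for methuselah, 2 of 3 for feeding neuropeptides and 2 of 3 for neuron genes. They were 1 of 5 for gut and 2 of 2 for germline genes. With a mean of at least 10, feeding neuropeptides gave 5 of 11, where 56.3% of all genes were called. Centred on the median gene, sex determination genes gave 8. Against genes of like length and mean, insulin-like peptides gave 1 (Ilp6) and ATP synthase 1, CCHa2 turned to 0.16 and put to -0.024. The cause of these shifts was not tested.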
